A study of Mus musculus with 12 samples.

Results

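H3K27me3, the histone mark laid down by Polycomb repressive complex 2, was compared between SR2-treated and control (Ctrl) mouse mammary tumour organoids. The comparison used the 4 H3K27me3 broad peak lists of these treatments, 2 replicates each, out of 12 libraries in the series. Peaks on chromosomes 1 to 19 and X were merged where they overlapped, which gave 3546 consensus regions for the 4 libraries. A protein-coding gene was given a region that overlapped it or lay within 5 kb of it. The number of bp of a region that a library's peaks covered is called covered bp below, and a region with any covered bp in a library is called marked there.

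The organoids were derived from PyMT tumours, a mouse model of breast cancer driven by the polyomavirus middle T antigen, and are called organoids, tumoroids or spheroids in the labels. The labels give the genotype as WT and the cell type as breast cancer, and place all libraries 3 days after treatment with control, SR2 or THC. What SR2 stands for, the animals the organoids came from and whether replicates are separate cultures are not given in the sources used here, so the spread behind each p-value may be technical. Each library was made by CUT&Tag, in which an antibody guides a transposase to the mark, from 500000 cells, and a replicate number is also a batch number in the labels.

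Polycomb repressive complex 2, with the methyltransferase EZH2, places H3K27me3 on chromatin of genes that are held silent. In mammalian genomes the mark typically lies over CG-rich promoters and broad domains of developmental regulators, the Hox clusters above all, and is read by the CBX subunits of Polycomb repressive complex 1. Some such promoters also carry H3K4me3, the mark of active or poised promoters, and are then called bivalent. In the mammary epithelium this system holds transcription factors of other lineages silent.

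Of the 3546 regions, 918 (25.9%) lay within 1 kb of a RefSeq start, so most had no such start near. The sequences before the starts of 5 genes show promoter sites inside regions marked in at least 2 libraries. Each run is the 250 bases before a RefSeq transcription start (GRCm38.p6, the assembly of mm10), with every CG dinucleotide in capitals. The region over the window was marked in both Ctrl and neither SR2 library for Pou3f2 and Cacna2d1, in 3 libraries for Hoxd11, in all 4 for Pax2, and in both SR2 and neither Ctrl library for Sertad2. They lie at chr4:22488367-22488616 (minus strand), chr5:15934441-15934690 (plus strand), chr2:74682073-74682322 (plus strand), chr19:44755502-44755751 (plus strand) and chr11:20542916-20543165 (plus strand).
Pou3f2: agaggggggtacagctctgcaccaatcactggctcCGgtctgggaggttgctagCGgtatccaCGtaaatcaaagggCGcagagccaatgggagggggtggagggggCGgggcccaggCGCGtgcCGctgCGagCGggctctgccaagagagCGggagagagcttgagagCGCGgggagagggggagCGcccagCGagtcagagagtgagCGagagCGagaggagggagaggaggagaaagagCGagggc
Cacna2d1: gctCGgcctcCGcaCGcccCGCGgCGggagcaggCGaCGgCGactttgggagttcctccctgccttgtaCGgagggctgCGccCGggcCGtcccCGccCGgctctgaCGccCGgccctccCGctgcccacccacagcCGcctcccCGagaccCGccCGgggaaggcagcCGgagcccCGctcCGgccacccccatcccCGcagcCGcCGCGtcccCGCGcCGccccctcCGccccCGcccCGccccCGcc
Hoxd11: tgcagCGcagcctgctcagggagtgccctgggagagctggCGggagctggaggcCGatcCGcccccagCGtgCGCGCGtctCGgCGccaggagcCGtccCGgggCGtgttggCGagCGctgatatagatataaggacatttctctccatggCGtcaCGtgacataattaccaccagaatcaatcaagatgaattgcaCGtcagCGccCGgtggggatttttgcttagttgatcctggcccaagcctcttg
Pax2: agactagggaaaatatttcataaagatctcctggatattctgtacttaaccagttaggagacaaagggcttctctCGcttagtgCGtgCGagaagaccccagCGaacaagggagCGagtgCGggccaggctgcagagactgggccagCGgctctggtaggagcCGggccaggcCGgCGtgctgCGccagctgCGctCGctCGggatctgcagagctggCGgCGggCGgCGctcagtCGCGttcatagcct
Sertad2: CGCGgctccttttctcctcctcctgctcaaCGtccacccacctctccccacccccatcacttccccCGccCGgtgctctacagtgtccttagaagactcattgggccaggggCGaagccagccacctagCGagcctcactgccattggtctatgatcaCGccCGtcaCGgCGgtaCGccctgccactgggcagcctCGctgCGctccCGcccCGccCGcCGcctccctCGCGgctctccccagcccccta
These windows held 18, 36, 20, 20 and 20 CG dinucleotides. The dinucleotide CG reads the same on both strands. Over all 32851 RefSeq windows of this length the median was 6, 92.1% held at least 1 CG and 27.3% held at least 15. Of the 795 windows that overlapped a consensus region, 99.6% held at least 1, 72.7% held at least 15, and the median was 20.

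The SR2 libraries held fewer H3K27me3 peaks than the Ctrl library of the same replicate number. Ctrl had 2708 peaks in replicate 1 and 386 in replicate 2, and SR2 had 839 and 157. SR2 was lower within each replicate number, but Ctrl replicate 2 lay below SR2 replicate 1, so the groups overlapped. The ratio of SR2 to Ctrl was 0.310 in replicate 1 and 0.407 in replicate 2. Covered length was 1225250 and 198608 bp in Ctrl against 377220 and 62051 bp in SR2, with ratios of 0.308 and 0.312. The exact two-sided permutation test gave p = 0.667 for each of these quantities, and 2 libraries against 2 cannot give less than 0.333. Peaks of at least 1000 bp numbered 167 and 37 in Ctrl and 45 and 8 in SR2. The lists hold no read totals, so the depth of these libraries is unknown and its part in the lower peak numbers was not tested. The H3K4me3 libraries of the same treatments had 18383 and 16442 peaks in Ctrl and 14812 and 15189 in SR2, with ratios of 0.806 and 0.924. For THC, which is set against the same Ctrl libraries, the H3K27me3 lists held 983 and 70 peaks, with ratios of 0.363 and 0.181.

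**Figure D1:**
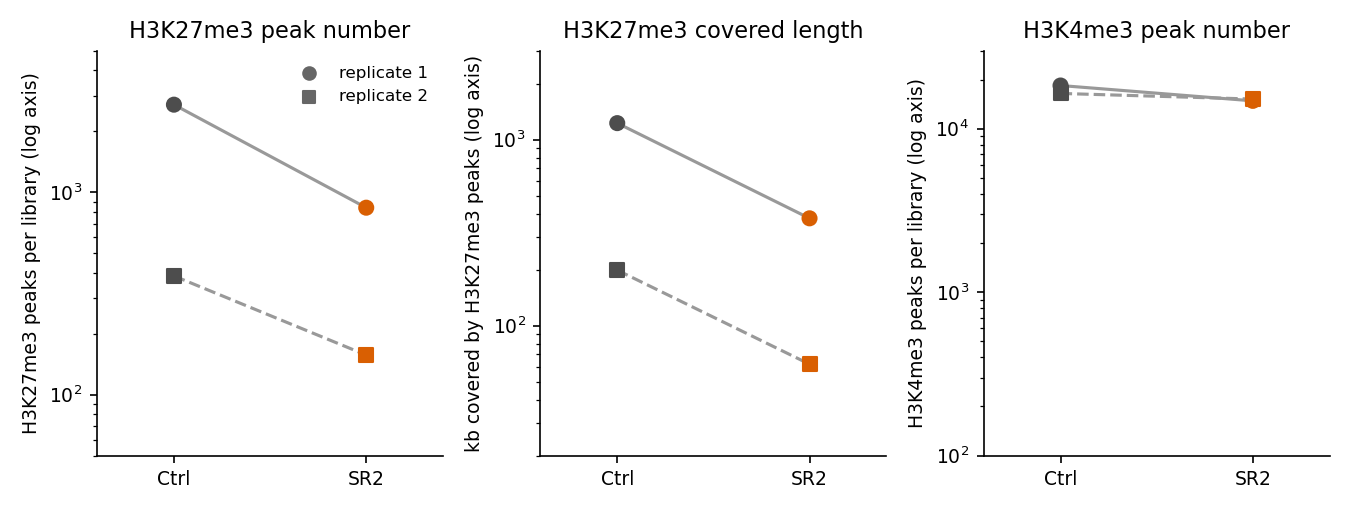
Peak number and covered kb of the H3K27me3 lists and peak number of the H3K4me3 lists, on log axes, with 1 point per library and lines joining libraries of the same replicate number. The H3K27me3 values of SR2 lie at 30.8% to 40.7% of Ctrl in both replicates, and replicate 1 lies above replicate 2 in each group.

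The cell identity given in the labels was checked against H3K4me3 peaks within 5 kb of marker genes. The luminal keratin genes Krt8, Krt18, Krt19 and Krt7, the basal keratin genes Krt5 and Krt14, and the epithelial adhesion gene Epcam had such a peak in all 4 Ctrl and SR2 H3K4me3 libraries. Ptprc, the pan-leukocyte marker, Cdh5 of endothelium, and Col3a1 and Dcn of fibroblasts had none in any of the 4. Other members of those lists did have it in all 4 (Spi1, Plvap, Col1a1), and the myoepithelial genes Acta2, Cnn1 and Myh11 had none; these members were chosen after their values were seen. Among 21 luminal hormone sensing genes 17 and 17 had a peak in Ctrl and 12 and 17 in SR2, and among 24 basal genes 19 and 17 against 16 and 18. Among 15 fibroblast markers 6 and 4 had a peak in Ctrl and 4 and 3 in SR2, among 14 endothelial markers 9 and 8 against 4 and 4, and among 20 blood cell markers 7 and 7 against 8 and 7.

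Developmental transcription factor genes were marked more often than protein-coding genes at large, and fewer of them were marked in SR2 within each replicate number. In Ctrl, 151 and 71 of 239 such genes lay within 5 kb of a region, and in SR2 72 and 19 did. Over all 21627 protein-coding genes the counts were 1734 and 243 in Ctrl and 649 and 113 in SR2. Covered bp at the 239 genes summed to 210706 and 58658 in Ctrl and 56486 and 7775 in SR2, ratios of 0.268 and 0.133, beside 0.330 and 0.303 over all genes. Of the 239, 63 (26.4%) had less covered bp in SR2 than in Ctrl in both replicates, and none had more in both. The same held for 146 of all protein-coding genes (0.675%), with 9 the other way. A gene not marked in both Ctrl libraries cannot be lower in both replicates, so the share was also taken over genes marked in both. There, 63 of 69 developmental factors (91.3%) and 83 of 100 other genes (83.0%) were lower in both replicates. These genes were chosen through the longer Ctrl lists, so a lower value in SR2 was likely for any of them. The 2 shares are therefore only descriptive.

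**Figure D2:**
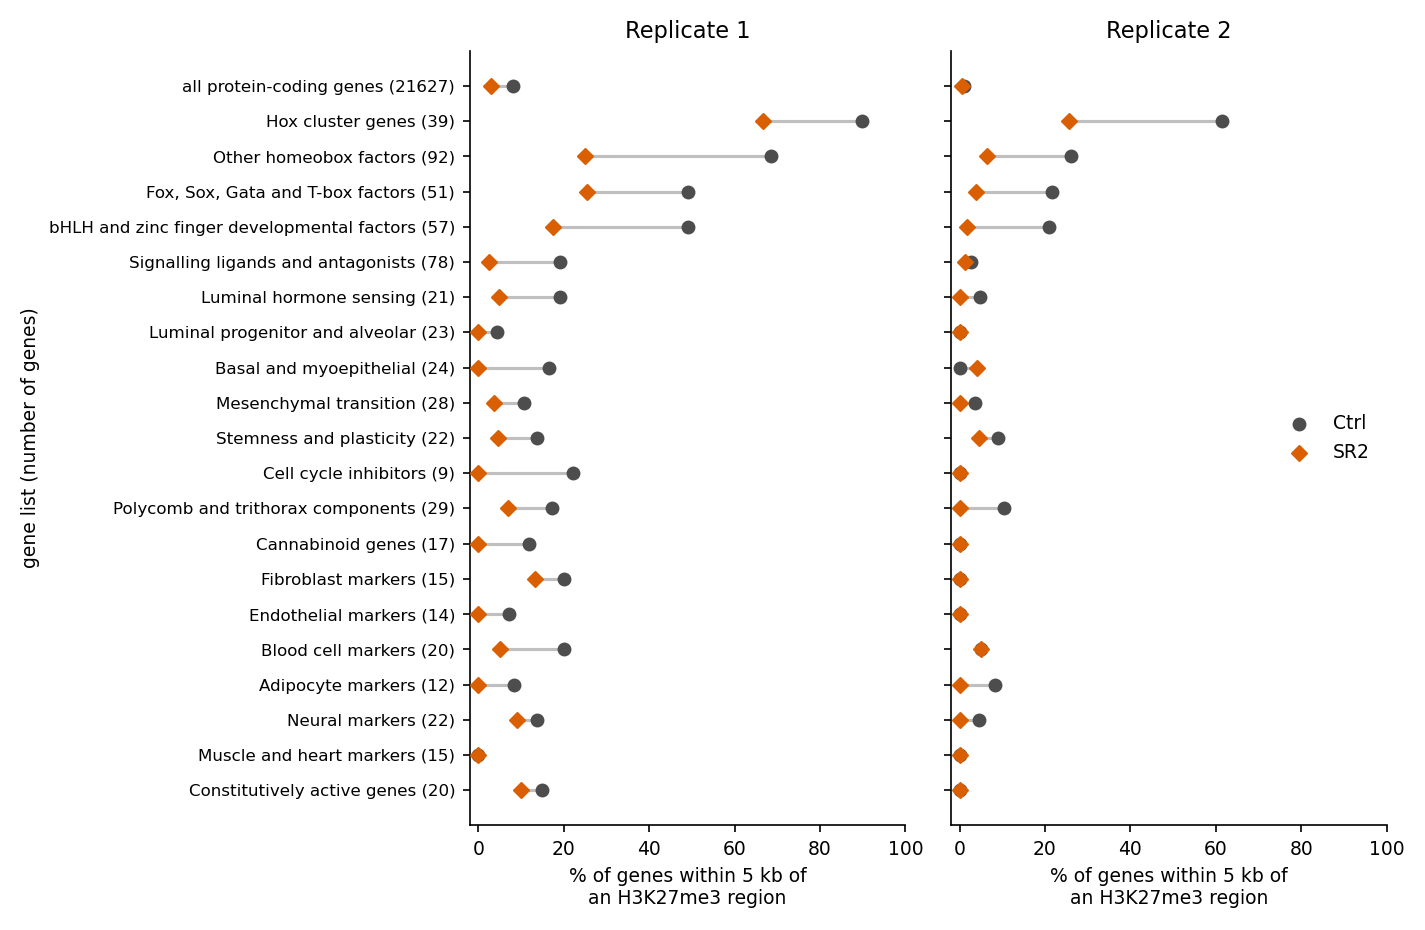
Share of the genes of each list within 5 kb of an H3K27me3 region, for Ctrl (circles) and SR2 (diamonds) in replicate 1 (left) and replicate 2 (right). Hox cluster genes reach 89.7% in Ctrl replicate 1 and 66.7% in SR2 replicate 1, and the lists other than developmental factors reach 22.2% at most in these 4 libraries.

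The Hox genes, which set position along the body axis, were marked most often. Of 39 cluster genes, 35 and 24 were marked in Ctrl and 26 and 10 in SR2. The Hoxa cluster had 11795 and 4053 covered bp in Ctrl and 5210 and 1925 bp in SR2. The Hoxb cluster had 11675 and 2462 bp against 3727 and 383 bp, and the Hoxc cluster had 13244 and 3628 bp against 5517 and 759 bp. At each of these 3 clusters SR2 was lower within each replicate number, while SR2 replicate 1 lay above Ctrl replicate 2. The Hoxd cluster had 8812 and 2759 bp in Ctrl and 3134 bp in the first SR2 replicate, and the second SR2 replicate had no peak there. Ratios of SR2 to Ctrl ran from 0.319 (Hoxb) to 0.442 (Hoxa) in replicate 1 and, for the 3 clusters with a peak in SR2 replicate 2, from 0.156 (Hoxb) to 0.475 (Hoxa). No Ctrl or SR2 library had an H3K4me3 peak within a consensus region of the Hoxa, Hoxb or Hoxd clusters, and 3 of the 18 regions of the Hoxc cluster had one.

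**Figure D3:**
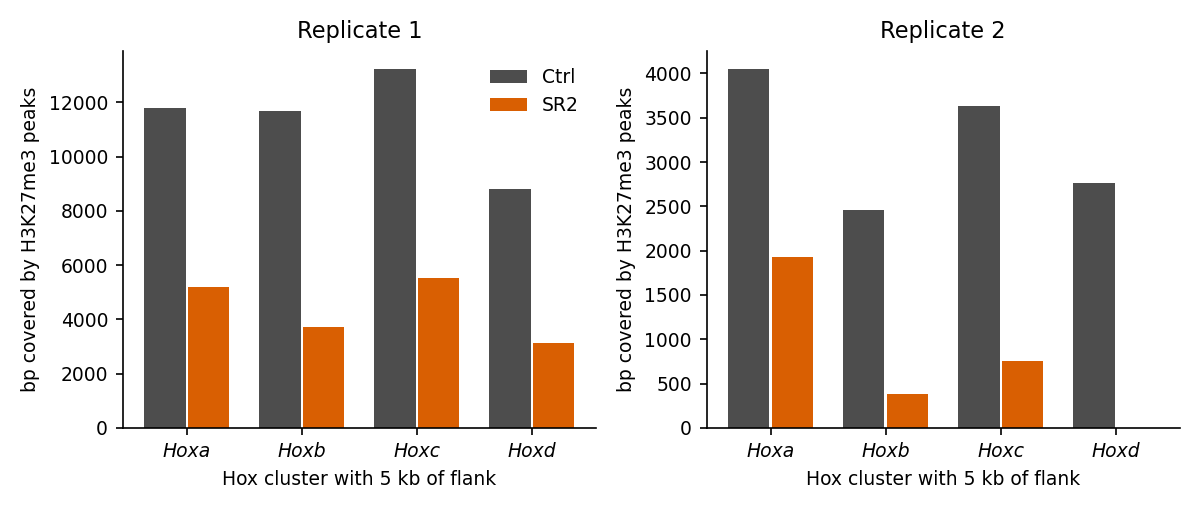
Covered bp of H3K27me3 over the 4 Hox clusters with 5 kb of flank, Ctrl beside SR2, in replicate 1 (left) and replicate 2 (right, with a shorter axis). SR2 is lower at every cluster in both replicates, and Hoxd has no SR2 peak in replicate 2.

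Within the clusters the genes differed. Hoxc13, at the posterior end of its cluster, had 756 and 614 bp in Ctrl and 701 and 345 bp in SR2. The region at Hoxc6 and Hoxc5 (chr15:103008924-103011205) had 1489 and 1125 bp against 1014 and 192 bp. The broadest region of Hoxa3 (chr6:52188919-52190662) also lay within 5 kb of Hoxa4. It had 1744 and 473 bp in Ctrl and 245 bp in SR2 replicate 2 only. Over all regions within 5 kb, Hoxa3 was marked in every library, with 5536 and 1708 bp in Ctrl and 1880 and 1089 bp in SR2. Hoxb13 (chr11:96194544-96196224) had 1681 and 1613 bp in Ctrl and no peak in either SR2 library. The region over Hoxd11, within 5 kb of Hoxd10 and Hoxd12 (chr2:74680781-74683713), had 2933 and 814 bp in Ctrl and, in SR2, 542 bp in replicate 1 alone. Its window of 250 bases is printed above and lies inside the region. Evx2, a homeobox gene beside the Hoxd cluster, was marked in every library (chr2:74656301-74659179): 2879 and 1156 bp in Ctrl and 442 and 260 bp in SR2, and here the groups did not overlap.

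The 4 libraries shared few regions. Of the 3546, 3175 were marked in a single library, 371 in at least 2 and 43 in all 4. Within replicate 1, 242 regions were marked in both treatments, 2466 in Ctrl alone and 595 in SR2 alone, and within replicate 2 the counts were 60, 325 and 96. In both replicates together, 76 regions (2.14% of all) were marked in both Ctrl and neither SR2 library and 7 (0.197%) in both SR2 and neither Ctrl library. Among genes, 79 (0.365%) were marked in both Ctrl libraries and neither SR2 library, and 4 (0.0185%) the reverse. The 76 regions came down to 16 when the Ctrl lists were shortened to the strongest 839 and 157 peaks by the authors' q, the numbers in the SR2 lists, and the 7 regions went to 18.

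Regions near developmental factors made up 22 of the 76 Ctrl-only regions and none of the 7 SR2-only ones. The first share, 28.9%, is near the 25.3% of all regions marked in at least 2 libraries. The gene counts were 21 of 239 developmental factors (8.79%) marked in both Ctrl and neither SR2 library. Over genes marked in both Ctrl libraries, the share absent from both SR2 lists was lower for developmental factors (21 of 69, 30.4%) than for other genes (58 of 100). Sp8, a zinc finger factor of limb outgrowth that is in none of the lists, had the most covered bp of all 76, 1937 and 2068 bp in Ctrl (chr12:118848243-118850379). Zic5, a zinc finger factor of the neural tube, had 3140 and 722 bp (chr14:122462402-122465541). Pou3f2, a POU factor of neurons whose window is printed above, had 2816 and 569 bp (chr4:22487118-22489933). All 3 had no peak in both SR2 libraries, and in THC replicate 1 they had 1367, 1347 and 305 bp.

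Uncx, a homeobox factor of somites, had 1959 and 1342 bp in Ctrl and none in SR2 at one region (chr5:139545823-139547781), but at a second region (chr5:139551630-139552736) every library was marked: 1107 and 1081 bp in Ctrl and 365 and 477 bp in SR2. Tbx2, a T-box repressor, had 1506 and 977 bp in Ctrl and none in SR2 (chr11:85830941-85832957), in a region that also lies within 5 kb of Bcas3 and had H3K4me3 in all 4 libraries. Prdm12, a factor of sensory neurons, had 1290 and 1167 bp in Ctrl and none in SR2. Otp, a homeobox factor of the hypothalamus that is also in none of the lists, had 1467 and 721 bp in Ctrl and none in SR2 at one region (chr13:94882763-94884229). Over all regions within 5 kb, Otp had 2194 and 721 bp in Ctrl and 419 and 232 bp in SR2. Most of these regions overlapped the gene itself; whether an exon or an intron was covered was not analysed here.

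The covered bp of the 371 regions marked in at least 2 libraries was tested with limma on log2(covered bp + 200), with the replicate number as a block and THC in the fit. At an adjusted p of 0.05, 36 regions (9.70%) were narrower in SR2 and 2 (0.539%) wider, with adjusted p from 0.0409 to 0.0446, and the median log2 change over all 371 was -0.31. Of the 36, 35 were regions marked in both Ctrl and neither SR2 library, and the 2 wider ones were marked in both SR2 and neither Ctrl library. Regions that passed the filter only through their Ctrl or only through their SR2 libraries had to differ, so these counts restate presence in both directions. The count was 0 in each direction with a pseudocount of 1000 bp, with the 4 libraries alone, with libraries centred on the regions marked in all 4 and with the same number of peaks per replicate number. Without SR2 replicate 1 it was 1 narrower and 0 wider, and without SR2 replicate 2 it was 0 and 0. Centring moved the median log2 change to 0.19, with 164 regions negative and 207 positive.

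The narrower regions by this test included those of Uncx (log2 change -3.19, SE 0.31, adjusted p 0.0409), Tbx2 (-2.82) and Nkx2-9 (-2.59). Nkx2-9 and Nkx2-1, homeobox factors of ventral neural tube and of lung and thyroid, had 1158 and 873 bp and 755 and 1137 bp in Ctrl and none in SR2. Cacna2d1, a calcium channel subunit gene whose CG-rich window is printed above, had 1200 and 869 bp in Ctrl and none in SR2 (-2.61). Pparg, the nuclear receptor that drives fat cell formation, had 817 and 1018 bp in Ctrl and none in SR2 (-2.48), with H3K4me3 in all 4 libraries over the same region (1092 and 840 bp in Ctrl, 541 and 845 bp in SR2). The region of Hoxd10, Hoxd11 and Hoxd12 was the only one of the 36 with a peak in an SR2 library (-2.21, SE 0.21, adjusted p 0.0409). Its adjusted p was 0.441 with no replicate block and 0.117 with a pseudocount of 50 bp, and ran from 0.0385 to 0.782 over the alternatives run. Sp8 (-3.46, SE 0.99, adjusted p 0.182) and Zic5 (-3.13, SE 0.86, adjusted p 0.173) had changes as large and did not pass.

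**Figure D4:**
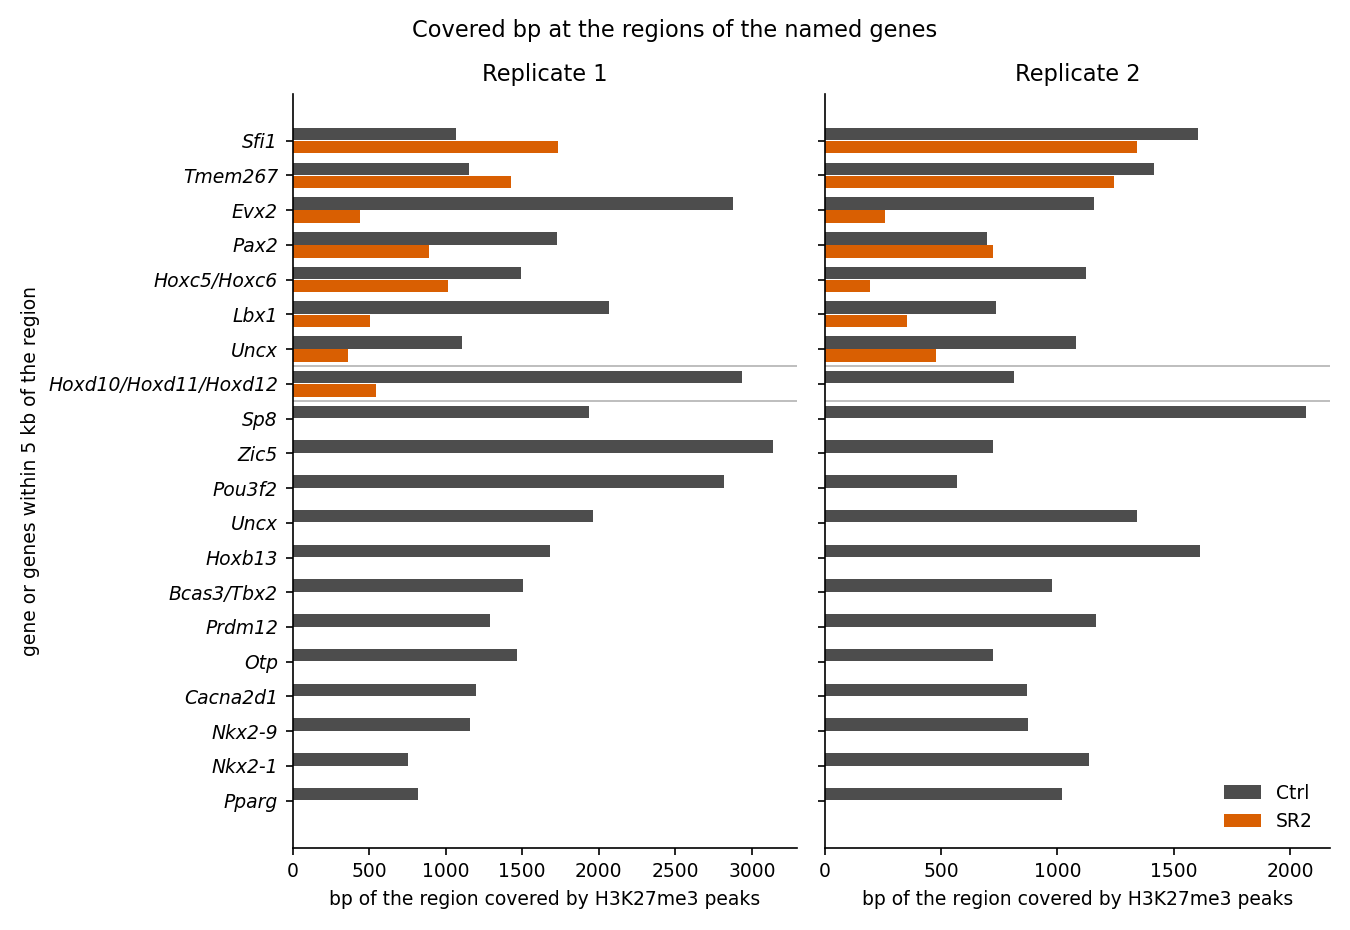
Covered bp of H3K27me3 at the regions of genes named in the text, Ctrl above SR2, in replicate 1 (left) and replicate 2 (right, with a shorter axis). From top to bottom come regions marked in all 4 libraries, the region over Hoxd11 marked in 3, and regions marked in both Ctrl and neither SR2 library, which have no SR2 bar.

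The regions marked in all 4 libraries were of separate kinds. Among the 43, 8 lay near developmental factors, and there the median ratio of SR2 to Ctrl was 0.528 in replicate 1 and 0.502 in replicate 2. Pax2, a paired box factor of kidney and eye, had 1726 and 699 bp in Ctrl and 893 and 724 bp in SR2 (chr19:44755430-44757170), lower in replicate 1 and nearly equal in replicate 2. Foxd1, a forkhead factor of kidney stroma, had 1494 and 431 bp against 614 and 464 bp, and Sox1, a factor of neural progenitors, had 885 and 890 bp against 477 and 272 bp. Lbx1, a homeobox factor of muscle precursors that is in none of the lists, had 2070 and 737 bp against 503 and 354 bp (chr19:45234649-45236804).

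Another 18 of the 43 overlapped H3K4me3 peaks in all 4 H3K4me3 libraries, none of them near a developmental factor, and their median ratios were 0.998 and 0.903. The broadest with a named protein-coding gene were in Sfi1, a centrin-binding protein gene, with 1065 and 1603 bp in Ctrl and 1732 and 1344 bp in SR2, and in Tmem267, with 1152 and 1417 bp against 1426 and 1244 bp. A region over the ribosomal RNA related sequence Rn18s-rs5, chosen after its values were seen, had 5599 and 5553 bp in Ctrl and 5576 and 4663 bp in SR2. No filter for repeated or high-signal sequence was used here, so whether these 18 regions are bivalent sites was not tested. The centring described above rested in part on them. THC replicate 2, the shortest list, was marked at 17 of these 18 regions and at none of the 8 near developmental factors. Without regions that had H3K4me3 in all 4 libraries, 25 regions were marked in all 4, 65 in both Ctrl and neither SR2, and 3 in both SR2 and neither Ctrl.

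SR2 peaks overlapped H3K4me3 more often than Ctrl peaks did. Of the H3K27me3 peaks, 26.1% and 17.9% in Ctrl and 44.3% and 33.8% in SR2 overlapped an H3K4me3 peak of the same treatment and replicate, and the groups did not overlap (exact two-sided permutation p = 0.333, the smallest possible). Near developmental factors the counts were 37 of 230 and 6 of 75 peaks in Ctrl and 6 of 78 and 1 of 16 in SR2, and for other peaks 27.1% and 20.3% against 48.1% and 36.9%. Of the 76 Ctrl-only regions, 43 had no H3K4me3 in any of the 4 libraries, 11 had it in all 4 and 22 in 1 to 3. It was present in both Ctrl and neither SR2 library at 3 (3.95%), and in both SR2 and neither Ctrl library at none. The first pattern was found at 0.677% of all 3546 regions, most of which were marked in a single library. Among the 371 regions marked in at least 2 libraries it was found at 10 (2.7%), so 3.95% is near that share.

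The regions marked in both SR2 and neither Ctrl library were narrow at the named genes. Sertad2, a transcriptional coregulator gene, had 270 and 258 bp in SR2 at its start (chr11:20542842-20543320, log2 change 1.21, SE 0.12, adjusted p 0.0409). Ist1, a gene of the membrane-cutting ESCRT machinery, had 354 and 243 bp in SR2 8 bp from its start (chr8:109692928-109693286, 1.31, adjusted p 0.0409), in a region within 5 kb of Zfp821. Both regions lay wholly under H3K4me3 peaks in all 4 H3K4me3 libraries. Cobl, an actin nucleator gene, had 248 and 238 bp (1.15, adjusted p 0.262) and no H3K4me3. A further region in Sfi1 had 272 and 439 bp (1.46, adjusted p 0.401) beside the Sfi1 region marked in all 4 libraries. Both p-values restate presence, since these regions passed the filter only through SR2, and the wider calls were 0 in most alternatives. Over all regions within 5 kb, Sertad2 also had 341 bp in Ctrl replicate 1. In 4 of the 7 regions H3K4me3 was present in all 4 libraries.

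Within a replicate, SR2 regions near developmental factors mostly coincided with Ctrl regions, and other SR2 regions mostly did not. In replicate 1, 65 of 79 SR2 regions near developmental factors (82.3%) were also marked in Ctrl, against 177 of 758 others (23.4%). In replicate 2 the shares were 11 of 16 (68.8%) and 49 of 140 (35.0%). Where both treatments were marked near developmental factors, SR2 was narrower at 55 regions and wider at 10 in replicate 1 (median log2 ratio of covered bp -0.55), and narrower at 7 and wider at 4 in replicate 2 (-0.83). Over all shared regions SR2 was narrower at 177 and wider at 62 in replicate 1 (-0.27), and at 40 and 19 in replicate 2 (-0.19). By count, the regions near developmental factors in replicate 2 thus lie near all shared regions. At shared regions with H3K4me3 in all 4 libraries the medians were -0.02 and -0.15.

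Ctrl peaks that an SR2 peak overlapped had higher -log10 q values and were longer. Their median fold enrichment, also the authors' value, was 3.80 against 3.97 for the others in replicate 1 and 4.04 against 3.73 in replicate 2, so its order turned. In replicate 1, the Ctrl list was split into 4 equal parts by -log10 q, and 3.25% of the weakest part overlapped an SR2 peak of the same replicate, against 20.4% of the strongest part. In replicate 2 the shares were 4.12% and 35.1%. The median length of the overlapped Ctrl peaks was 497.5 and 454 bp, and that of the others 335 and 362.5 bp. Among the strongest part, the share was 40.9% of 88 peaks near developmental factors against 17.3% of the others in replicate 1, and 11.8% of 17 peaks against 40.0% in replicate 2, so the order turned between replicates.

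**Figure D5:**
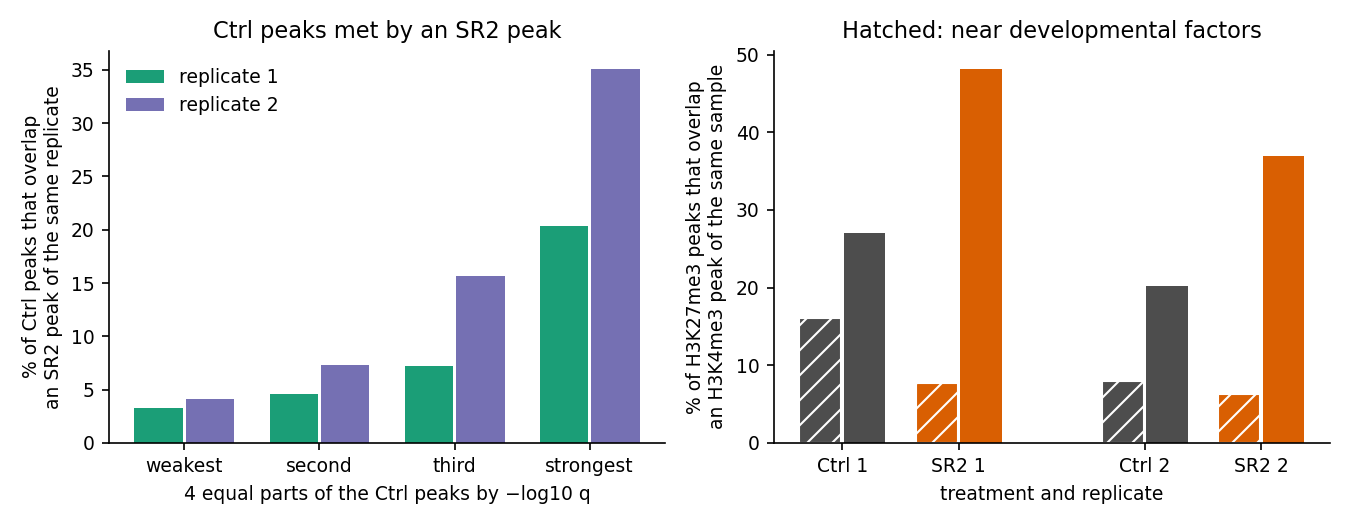
Left, the share of Ctrl H3K27me3 peaks that overlap an SR2 peak of the same replicate, in 4 equal parts of the Ctrl list from weakest to strongest -log10 q, rising from 3.25% to 20.4% in replicate 1 and from 4.12% to 35.1% in replicate 2. Right, the share of H3K27me3 peaks that overlap an H3K4me3 peak of the same sample, hatched for peaks near developmental factors and plain for other peaks, with the plain bars higher in SR2 (48.1% and 36.9%) than in Ctrl (27.1% and 20.3%).

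With the lists cut to the same number of peaks per replicate number, 106 Ctrl and 79 SR2 regions near developmental factors were left in replicate 1 and 28 and 16 in replicate 2. Their covered bp was 86124 against 44598 bp and 19075 against 6012 bp, ratios of 0.518 and 0.315, while all covered bp had ratios of 0.921 and 0.686. The cut kept the strongest Ctrl peaks by -log10 q and left the SR2 lists whole. From weakest to strongest, the 4 parts of the Ctrl list held 37, 48, 57 and 88 peaks near developmental factors in replicate 1. In replicate 2 they held 17, 22, 19 and 17. In replicate 1 the cut thus favoured such peaks in Ctrl, so these ratios are only descriptive. Over whole lists, the share of covered bp near developmental factors was 14.3% and 24.5% in Ctrl and 11.7% and 9.69% in SR2, groups that did not overlap (exact two-sided permutation p = 0.333, the smallest possible). By number of peaks the share was 8.49% and 19.4% in Ctrl and 9.30% and 10.2% in SR2, higher in SR2 in replicate 1 and lower in replicate 2.

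The other families of developmental factors were marked less often than the Hox genes. Of 92 other homeobox factors, 63 and 24 were marked in Ctrl and 23 and 6 in SR2. Of 51 Fox, Sox, Gata and T-box factors, 25 and 11 were marked in Ctrl and 13 and 2 in SR2. Gata4, a factor of heart and gut, had 3070 bp over its regions in Ctrl replicate 1 against 1993 bp in SR2 replicate 1. At its broadest region the values were 1519 and 1453 bp, and replicate 2 had no peak at the gene in either group. Foxl2, a factor of the ovary, had 2135 and 1051 bp in Ctrl over its regions and 472 bp in SR2 replicate 1. Of 57 bHLH and zinc finger factors, 28 and 12 were marked in Ctrl and 10 and 1 in SR2. Zic2 had 2904 and 1642 bp in Ctrl and 1466 bp in SR2 replicate 1 alone, Neurod2 of neurons had 1711 and 1106 bp against 401 bp in SR2 replicate 1, and Ebf3, over its regions, 3248 and 1044 bp against 1193 bp in SR2 replicate 1. A single Ebf3 region was wider in SR2 replicate 1 (760 bp) than in Ctrl replicate 1 (597 bp).

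Of 78 ligands and antagonists, 15 and 2 were marked in Ctrl and 2 and 1 in SR2. These are 19.2% and 2.56% in Ctrl and 2.56% and 1.28% in SR2, beside 8.02% and 1.12% and 3.00% and 0.522% of all protein-coding genes, so the SR2 counts lie near the background. The ligand genes Wnt3a and Shh had 933 and 496 bp in Ctrl replicate 1, and the other 3 libraries had no peak there; they were chosen after their values were seen. Sim2, a bHLH factor placed in this list, had 1371 bp in Ctrl replicate 1 at its broadest region and 787 bp in SR2 replicate 2.

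In Ctrl replicate 1, 4 of 21 luminal hormone sensing and 4 of 24 basal genes were marked, shares above the 8.02% of all protein-coding genes. Of 21 luminal hormone sensing genes 4 and 1 were marked in Ctrl and 1 and 0 in SR2. Foxa1, the pioneer factor of oestrogen receptor sites, had 413 and 756 bp in Ctrl and 302 bp in SR2 replicate 1 at a region within 5 kb of the gene (log2 change -1.27, adjusted p 0.407). Of 23 luminal progenitor and alveolar genes 1 and 0 were marked in Ctrl and none in SR2, and of 24 basal and myoepithelial genes 4 and 0 in Ctrl and 0 and 1 in SR2. Lgr5, a stem cell receptor gene of the basal list, had 460 bp in Ctrl replicate 1 and 200 bp in SR2 replicate 2. Krt8, Krt5, Ezh2 and Cnr2, which encodes the cannabinoid receptor CB2R named in the title of the series, had no region within 5 kb in any library.

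Of 28 mesenchymal transition genes 3 and 1 were marked in Ctrl and 1 and 0 in SR2, and of 22 stemness and plasticity genes 3 and 2 against 1 and 1. The shares were 10.7% and 3.57% against 3.57% and 0%, and 13.6% and 9.09% against 4.5% and 4.5%. Over all protein-coding genes they were 8.02% and 1.12% in Ctrl and 3.00% and 0.522% in SR2. With so few genes marked, no result about these lists is read from the counts. A mesenchymal gene on chromosome 18, which is left out of naming, was marked in both Ctrl and neither SR2 library. Twist1, an inducer of mesenchymal transition, had 1509 bp in Ctrl replicate 1 and 901 bp in SR2 replicate 1. Sox2, a pluripotency factor, had 1604 and 296 bp in Ctrl and 415 bp in SR2 replicate 1. Lin28b, an RNA-binding protein gene that blocks let-7 maturation, had 869 and 563 bp in Ctrl and none in SR2 (log2 change -2.17, adjusted p 0.147). Of 17 cannabinoid genes, 2 (11.8%) were marked in Ctrl replicate 1 and none in the other libraries. Of 9 cell cycle inhibitor genes the counts were also 2 (22.2%) and none, beside 8.02% of all protein-coding genes in Ctrl replicate 1.

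Among 29 genes of Polycomb and trithorax complexes, 5 and 3 (17.2% and 10.3%) were marked in Ctrl and 2 and 0 (6.90% and 0%) in SR2. The shares of all protein-coding genes were 8.02% and 1.12% in Ctrl and 3.00% and 0.522% in SR2. Cbx8, which encodes a reader subunit, had 1544 and 346 bp in Ctrl over its regions and none in SR2. Jarid2, a cofactor of Polycomb repressive complex 2, had 450 and 411 bp in Ctrl and 411 bp in SR2 replicate 1. Kdm6a, a demethylase of H3K27me3, had 714 bp in Ctrl replicate 1 and 1042 bp in SR2 replicate 1, under H3K4me3 in all 4 libraries. Of the lists for other cell types, fibroblast markers were marked in 3 and 0 genes of 15 in Ctrl and 2 and 0 in SR2, endothelial markers in 1 of 14 in Ctrl replicate 1, neural markers in 3 and 1 of 22 against 2 and 0, and muscle and heart markers in none of 15. Of the 20 genes of the blood cell list, 4 and 1 were marked in Ctrl against 1 and 1 in SR2. Over its regions, Runx3 had 2898 and 308 bp in Ctrl and 227 bp in SR2 replicate 2. Gfi1 had 869 bp in Ctrl replicate 1 and 648 bp in SR2 replicate 1 over its regions. At its broadest region the Gfi1 values were 424 and 648 bp. Of 20 constitutively active genes, which should lack the mark, 3 and 0 were marked in Ctrl and 2 and 0 in SR2, for example Hspa8 with 382 bp in Ctrl replicate 1 and 286 bp in SR2 replicate 1. In replicate 1 these shares lay above those of all genes, 8.02% in Ctrl and 3.00% in SR2.

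The broadest regions marked in replicate 1 by Ctrl alone were again led by Zic5 and Pou3f2, and 4 of the 8 genes named from them had no peak in replicate 2 of either group. These were Dscaml1, a neuronal adhesion gene (1954 bp), Nat8l, which makes N-acetylaspartate (1918 bp), Hmga2, a chromatin protein gene (1897 bp), and Foxi3, a forkhead factor (1828 bp). Of the regions marked in replicate 1 by SR2 alone and given to a named gene, the broadest lay in Sfi1 (2148 bp), within 5 kb of Eif4enif1, with 357 bp in Ctrl replicate 2 and 564 bp in SR2 replicate 2. Regions of Ssbp2 (1197 bp), Atp8a1 (1172 bp), Luzp4 (1167 bp), Cacna1g (1160 bp) and Add3 (1088 bp) were marked in SR2 replicate 1 and in none of the other 3 libraries. Those of Atp8a1 and Add3 overlapped H3K4me3 in all 4 libraries. Luzp4 as a whole gene was not marked by SR2 replicate 1 alone. Its total over regions within 5 kb was 334 (Ctrl replicate 1), 1386 (Ctrl replicate 2), 1554 (SR2 replicate 1) and 609 bp (SR2 replicate 2).

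SR2 and THC were compared at the same 371 regions in the same limma fit. No region differed at an adjusted p of 0.05, and the smallest adjusted p was 0.448. At an unadjusted p under 0.05, 1 region was lower and 7 were higher in SR2. In the contrast of THC with the shared Ctrl libraries, 39 regions were narrower and none wider after adjustment, and 75 and none at an unadjusted p under 0.05. The regions were merged from and filtered on the Ctrl and SR2 libraries, so a region marked in THC alone could not be tested. The directions of both contrasts with THC lean on that choice and are only descriptive. In THC replicate 1, Uncx, Nkx2-9, Tbx2 and Pparg had no covered bp at the regions where SR2 had none, while Prdm12 had 1290 bp. The regions of Uncx, Nkx2-9, Tbx2 and Pparg had passed the threshold in a fit that included the THC libraries. Covered bp in THC adds to the spread in that fit, so their absence in THC is not separate from the call. Of the 76 Ctrl-only regions, 31 (40.8%) had covered bp in a THC library. The share was 51.2% of the 371 regions marked in at least 2 libraries and 10.5% of all 3546 regions.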

How the data were processed

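The series holds 12 CUT&Tag libraries, 6 for each of H3K27me3 and H3K4me3. Per the submitters' processing notes the tools were MACS3, bedtools, deepTools, SAMtools 1.8, Picard, Bowtie2 2.5.4 and cutadapt 5.2, given without roles, and the build was mm10. The deposited broad and narrow peak lists were called per sample by the authors, per the peak names in the files. Per the deposited files each peak has a start and end, a score that follows 10 times the −log10 q, a fold enrichment (a ratio within 1 library) and −log10 p and q values of the authors. These values only described, ranked or filtered peaks of 1 list. Read totals are not in the lists, so depth, and the precision it would give, is unknown.

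Peaks on chromosomes 1 to 19 and X were merged at 1 bp of overlap. Genes came from the RefSeq table of GRCm38.p6 (21627 protein-coding genes), and starts and promoter sequences from RefSeq tables that cover 79.9% of them. Covered bp was tested with limma 3.58.1 (R 4.3.3), with its trend option, fitted to log2(covered bp + 200) of the 6 H3K27me3 libraries, with the replicate number as a block, Benjamini-Hochberg adjustment and a threshold of 0.05. The script was tested on simulated data. Peak numbers were compared by exact permutation. Other tables used Python 3.11.15 and pandas 2.3.3. The labels give the replicate number as the batch, so it pairs the libraries, and deviations of Ctrl and SR2 libraries with the same number correlated at 0.209 over 371 regions.

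The members and the 20 gene lists (598 symbols, all matched) were chosen with earlier results of these data known. "Developmental factors" joins the Hox, other homeobox, Fox/Sox/Gata/T-box and bHLH/zinc finger lists. Named genes were, by covered bp, up to 10 per class of region (all 4 libraries, Ctrl-only, SR2-only), up to 8 in each direction in replicate 1, up to 4 per list and up to 10 past the limma threshold, plus Ezh2, Cnr2, Krt8 and Krt5. Clone names, predicted genes and chromosome 18 were left out of naming, and some genes this rule names are not reported here. Alternatives changed the q threshold, peak length, merging distance, overlap, gene window, number of peaks, pseudocount, filter, centring, block and libraries.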

Additional observations from a re-analysis of the deposited data

How the results depend on the processing

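The ratio of SR2 to Ctrl stayed below 1 under each alternative listed for it, from 0.241 (peaks of at least 1000 bp) to 0.407 (without replicate 1) for peak number and from 0.177 (peaks near developmental factors) to 0.367 for covered bp, means over both replicates that were 0.355 and 0.310 as reported. Exchanging treatments within the replicate number, a replicate block, left them at 0.355 and 0.310, with an exact permutation p = 0.5, the smallest it allows. Counts of regions and genes moved more. With -log10 q of at least 2, Ctrl-only regions were 16, regions in all 4 were 27, Ctrl-only genes were 16, SR2-only genes were 1, and limma gave 1 narrower and 0 wider. With the same number of peaks, which fixes the peak ratio, covered bp ratios were 0.921 and 0.686, Ctrl-only and SR2-only regions were 16 and 18, genes 17 and 16, and limma gave 0 and 0. With at least 50% of a region covered, 24 were marked in all 4. Within 1 replicate alone (without replicate 1 or 2), Ctrl-only regions were 325 to 2466, SR2-only 96 to 595, shared 60 to 242, Ctrl-only genes 193 to 1494 and SR2-only genes 63 to 409. Leaving out 1 library, limma called 0 to 51 regions narrower and 0 to 3 wider. It called 13 and 1 with regions marked in at least 1 library. It called 0 and 0 with a pseudocount of 1000 bp, the 4 libraries alone or centring, with 84 and 2, 87 and 5 and 63 and 7 at an unadjusted p under 0.05. With no replicate block it called 41 and 2, without the Hoxd11 region. Without regions with H3K4me3 in all 4 libraries, which was chosen after seeing the data, as were the peaks near developmental factors and the exchange within replicates, SR2-only regions were 3, regions in all 4 were 25, and limma gave 33 and 0. The 7 called regions of named genes kept their direction wherever they could be fitted. All but the Hoxd11 region had no peak in either SR2 library, so without centring their direction was fixed in advance. None of the 7 passed the threshold with a pseudocount of 1000 bp, with the 4 libraries alone or with centring. With 2 libraries per group and unknown depth, a region absent from a list cannot be told apart from one below the caller's threshold. The cause of these changes was not tested.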
